A study of Mus musculus with 7 samples.

Results

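These values describe the early answer of PDKC1 cells, a line derived from mouse basal cell carcinoma, to cyclopamine. They set the array of cells treated for 6 h against the array of untreated cells at 0 h, that is, 2 of the 7 arrays of the series. All probe sets that the platform annotation assigns to a single gene were used, 34945 of 45101 on the array, and they covered 18193 genes. Weight was given to the 8029 genes whose representing probe set read over 300 intensity units on at least 1 of both arrays, called bright genes here. The representing probe set of a gene was the one with the highest mean over the 3 PDKC1 arrays.

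The series also holds 2 arrays of mouse basal cell carcinoma, 2 of newborn (P0) mouse epidermis and 1 of PDKC1 cells after 10 h of cyclopamine. PDKC1 cells were grown in multiwell plates in conditioned medium, rinsed and lysed, and 2000 ng of total RNA was used per array. The 0 h cells are labelled as the control, and all 3 PDKC1 cultures are of the same line. The dose and vehicle of cyclopamine, the genotype of the line and whether it is 1 clone are not stated in the labels. Every PDKC1 time has 1 array, so no difference between 6 h and 0 h has a replicate check and no p-value is given. The control was taken at the start, so hours in the plate and hours of cyclopamine cannot be told apart. Readings at 10 h are given beside the others for the named genes, and both treated arrays share the 0 h array.

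Hedgehog ligands bind the receptor Patched 1, which otherwise holds the membrane protein Smoothened inactive. Active Smoothened lets the GLI factors enter the nucleus in their activator form, where they switch on, among other genes, Gli1, Ptch1 and Hhip, which therefore serve as readouts of the pathway. Cyclopamine is a plant steroidal alkaloid that binds and blocks Smoothened. Basal cell carcinomas arise in the epidermis and hair follicle and usually carry a pathway that is switched on without ligand. Cells make cholesterol from acetyl-CoA through mevalonate and squalene, and the SREBP factors switch on the genes of these enzymes when sterols in the endoplasmic reticulum are low.

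Basal keratins were bright on both arrays, and so were Vim and Acta2, which are better known from mesenchymal and muscle cells. Of 9 keratinocyte markers 6 were over 300 on each array, among them Krt5 at 31321.6 at 0 h and 29659.1 at 6 h, Krt14 at 39550.5 and 33199, and Trp63 at 8778.9 and 9018.4. Krt17, Cdh1 and Epcam were under 300 on both. Of 9 fibroblast markers only Vim was over 300, at 32970.8 and 30890.1, and Col1a1 and Pdgfra read 46.9 and 64.3 at 0 h. None of 5 endothelial, 3 mast cell and 3 skeletal muscle markers was over 300, and the endothelial markers summed to 169.1 at 0 h and 172.1 at 6 h. Cd68 was the only leukocyte marker of 6, Mitf the only melanocyte marker of 4 and Acta2, at 22868 and 20039.6, the only feeder or mesenchymal marker of 3 above that level. The 2% trimmed mean was 500 on each array, the share of probe sets over 300 was 30.9% at 0 h and 30.8% at 6 h, and the 3' to 5' ratio of Actb was 1.15 and 1.18.

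Few genes moved far within 6 h. Differences are given as log2(intensity + 16) at 6 h minus that at 0 h, a scale that understates the change of dim genes, and a gene is said to have risen or fallen at 2-fold or 1.5-fold only if it passed that size on this scale. At 2-fold, 5 of the 8029 bright genes rose (0.0623%) and 13 fell (0.162%). At 1.5-fold, 67 rose (0.834%) and 77 fell (0.959%). Centring each array on its median probe set moved the median of all bright genes to 0.11 and these counts to 14 and 11 at 2-fold and 141 and 44 at 1.5-fold. That median was 78.3 at 0 h and 72.4 at 6 h, far under 300, so this setting, run as an alternative only, aligns the arrays on dim signal. Without this centring the median difference over all bright genes was 0.00, and 84.3% of them lay within 1.2-fold. The middle 98% of bright genes spanned -0.57 to 0.55.

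How far a difference can be read depended on the level. The SD of the differences was 0.50 among the 173 bright genes with a mean under 300, 0.26 among 1907 genes between 300 and 600, 0.17 among 1818 genes between 1200 and 2400 and 0.12 among 885 genes above 4800. Each of the 173 was over 300 on 1 array and under it on the other. The limit itself thus held their differences away from 0, and their SD is in part a product of it. The 26 spiked-in control probe sets over 300, which do not come from the cells, had a median of 0.00, an SD of 0.15 and a range of -0.41 to 0.26. Among 3369 genes with several probe sets over 300, the difference of a second probe set departed from that of the representing one with an SD of 0.26. Of the 13 genes that fell 2-fold, 9 were over 300 at 0 h only, and of the 5 that rose, 4 were over 300 at 6 h only. These genes entered only through the array on which they were high.

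**Figure D1:**
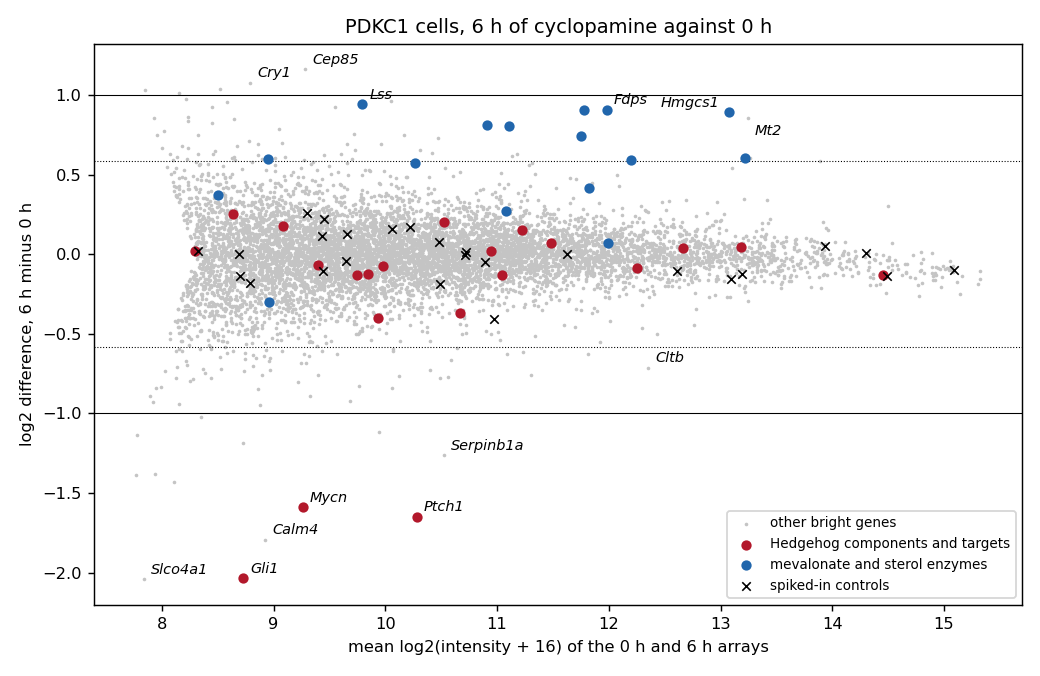
Difference between 6 h and 0 h of cyclopamine (log2, vertical axis) against mean level (log2, horizontal axis) for each of the 8029 bright genes, 1 point per gene, with Hedgehog components and targets in red, cholesterol synthesis enzymes in blue and spiked-in controls as crosses. Solid lines mark 2-fold and dotted lines 1.5-fold; Gli1, Ptch1 and Mycn lie below the cloud, and most cholesterol enzymes lie along its upper edge, up to the highest levels.

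The Hedgehog readout genes were among the genes that fell furthest. Gli1, the transcription factor that is itself a GLI target, read 841.9 at 0 h, 193.2 at 6 h and 189.6 at 10 h. Its log2 difference at 6 h was -2.04, a ratio of 4.36 between the 0 h and the 6 h intensity, and the 6 h value lay under 300. Ptch1, the receptor and a feedback inhibitor of the pathway, read 2184.8, 686.2 and 549.5, with a difference of -1.65 at 6 h. Unlike Gli1, it stayed above 300 on all 3 arrays. Both other probe sets of Ptch1 were dim, at 125.9 and 97.3 at 0 h, and read 36 and 21.7 at 6 h. In RNA from a whole culture, fewer expressing cells and less RNA per cell cannot be told apart.

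Hhip, a membrane protein that binds and traps the ligands, is the third classical readout. Its representing probe set was under 300 and read 268.3, 132 and 127.9. Another probe set of Hhip was over 300 at 0 h and read 396.2, 151.5 and 61.9, a difference of -1.30 at 6 h. The remaining probe sets were dim and differed by -0.33 and -0.39, so all 4 were lower at 6 h than at 0 h, by unequal amounts.

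The proteins that carry the signal between receptor and nucleus differed little in their mRNA. Smo, the protein cyclopamine binds, read 1934.9 at 0 h, 1966.1 at 6 h and 2098.1 at 10 h, a difference of 0.02 at 6 h. Gli2, the main activator, read 1832.4, 1415 and 1592.6, and its -0.37 is short of 1.5-fold. A second probe set of Gli2 gave -0.24. Gli3, mostly a repressor, read 1358.2, 1566.8 and 1631.1 with 0.20, and a second probe set gave 0.46. Sufu, which holds GLI proteins in the cytoplasm, read 494.3, 561.1 and 528.5.

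The co-receptors of the ligands, Gas1, Cdon and Boc, were all bright, Boc only through its 6 h reading. Gas1 was the brightest Hedgehog component, at 6400.9, 6575.5 and 6588.4. Cdon read 348, 417.6 and 524.8, and Boc read 296.3, 301.3 and 416.2. Boc is the member just inside the threshold of 300, and Hhip, at 268.3, the one just outside it. The ciliary receptor Gpr161, which restrains the pathway, and Hhat, the enzyme that palmitoylates the ligands, differed by -0.07 and -0.07. The ligands were dim on both arrays. Shh read 55.8 and 79, Ihh 75.1 and 69.5, and Dhh 54.3 and 44.7. Kif7, at 214.1 and 232.7, and Disp1, at 151.8 and 130, were dim too.

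In all, 17 of 18 listed components were measured and 11 were bright. Of these 11, 2 fell 2-fold, against 0.162% of all bright genes, and none rose 1.5-fold. The difference was above 0 for 6 and below 0 for 5, with a median of 0.02 against 0.00 for all bright genes. Among the bright components the 2-fold fall was thus seen in Gli1 and Ptch1, and the other 9 ranged from -0.37 to 0.25. Hhip is not counted among them, because its representing probe set was under 300 on both arrays. Another of its probe sets, over 300 at 0 h, differed by -1.30.

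**Figure D2:**
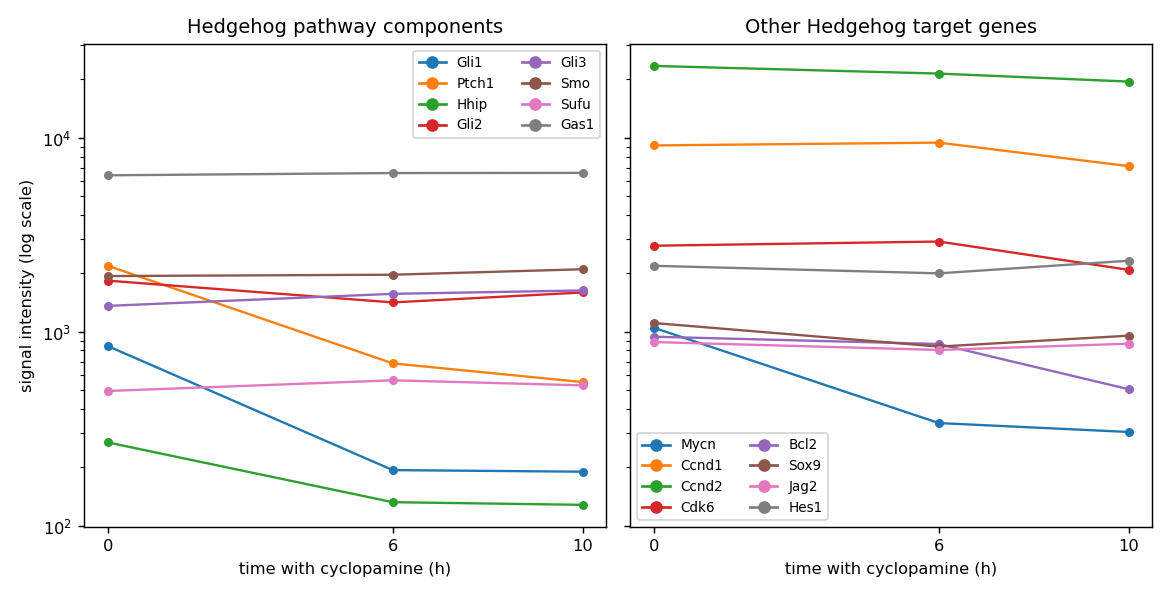
Signal intensity (log axis) at 0 h, 6 h and 10 h of cyclopamine, 1 array per time, for 8 Hedgehog pathway components (left) and 8 other Hedgehog target genes (right). Gli1, Ptch1, Hhip and Mycn are lower at 6 h and 10 h than at 0 h, while Smo, Sufu and Gas1 run nearly level; Ccnd1, Cdk6 and Bcl2 are lower at 10 h than at 6 h.

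Of the other bright genes known as Hedgehog targets, most did not pass 1.5-fold at 6 h. The exception among them was Mycn, a MYC family factor that drives proliferation, which read 1046.9 at 0 h, 337.8 at 6 h and 303.8 at 10 h, with a difference of -1.59. Its remaining probe sets were dim and disagreed, one reading 178 and 120.6 and the other 44.7 and 63.1 at 0 h and 6 h. With the mean of all its probe sets the difference was -0.57. Myc itself read 2768.7, 2862.7 and 2401.1, and of the 8 bright members of the MYC family and its partners Mycn alone passed 1.5-fold.

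The cell cycle targets differed little at 6 h. Ccnd1, a D cyclin, read 9127.5 at 0 h, 9434.4 at 6 h and 7138.1 at 10 h, and Ccnd2 read 23458.7, 21419.4 and 19483.7. Cdk6, their kinase partner, read 2774.4, 2915.6 and 2083.1. Bcl2, which protects from apoptosis, read 941.8, 863.4 and 504.7, so most of its drop lay between the 6 h and the 10 h array. Sox9, a factor of hair follicle progenitors, had the next lowest difference of the bright targets, with 1108.1, 837.3 and 953.4 and -0.40 at 6 h. Jag2 and Hes1 of the Notch pathway differed by -0.13 and -0.13, Rab34, a protein of cilium formation, by -0.09, and the Polycomb gene Bmi1 by 0.15.

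Of 24 listed targets 22 were measured and 12 were bright. Of these, 3 fell 2-fold (Gli1, Ptch1 and Mycn), against 0.162% of all bright genes, and none rose 1.5-fold. The difference was above 0 for 3 and below 0 for 9, with a median of -0.13. With arrays centred on their median probe set, that median was -0.02 against 0.11 for all bright genes, and the same number fell 2-fold. The 10 dim targets were Foxf1, Foxl1, Foxm1, Hhip, Igfbp6, Lgr5, Nkx2-2, Pdgfra, Sfrp1 and Snai1. Of these, Hhip (-0.94), the Wnt inhibitor Sfrp1 (-0.92), the stem cell receptor Lgr5 (-0.73) and Igfbp6 (-0.69) differed downwards by more than 1.5-fold, and Nkx2-2 (0.67) upwards. Snai1, Foxl1, Pdgfra, Foxf1 and Foxm1 lay between 0.54 and -0.51. Sfrp1 read 102.9, 46.8 and 110.7, and 2 of its other probe sets went up, from 52.8 to 89.6 and from 12.9 to 37.5. Lgr5 read 62, 30.9 and 25.2, and Nkx2-2 7.3, 21 and 21. At such levels values scatter widely: without the limit of 300, 848 of 18193 genes would have risen and 1184 fallen 2-fold.

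A further 10 genes fell 2-fold. Of these, Slco4a1, an organic anion transporter, had the lowest difference of all bright genes. It read 447.8 at 0 h, 96.7 at 6 h and 151.9 at 10 h. A second, dim probe set of Slco4a1 went the other way, from 78 to 102, and the mean of its probe sets gave -0.86. Calm4, a calmodulin-like protein of the upper epidermis, read 887.9, 244.9 and 106.2, a difference of -1.79 at 6 h. Serpinb1a, an inhibitor of serine proteases, was the brightest of the 10. It read 2264.8, 934.1 and 840.6 and fell by 1.26 on the log2 scale, and a second probe set, at 277 and 146.8, gave -0.85.

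St8sia2, which adds polysialic acid to proteins such as NCAM, was 1 of the 2 fallen genes with a second probe set over 300, the other being Bcar1. Its probe sets read 623 and 264.9, and 412 and 187.8, at 0 h and 6 h. Bcar1, the focal adhesion adaptor p130Cas, read 1433.6, 652.9 and 743.3, but its second probe set gave only -0.31. Angptl4, an inhibitor of lipoprotein lipase, read 449.9, 213.5 and 106.1, and the mean with its dim second probe set gave -0.21. Upp1, uridine phosphorylase, read 336.9, 118.9 and 113.1, and the F-box gene Fbxw22 438.2, 152.6 and 153.2. St8sia2, Angptl4 and Upp1 were lower again at 10 h than at 6 h, and Bcar1 and Fbxw22 were not.

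The low reading at 6 h was not seen at 10 h for a pair of them. Cdc42bpb, a kinase of the actin skeleton, read 378.5 at 0 h, 135.6 at 6 h and 354.7 at 10 h. Oxt, which encodes the hormone oxytocin and was barely above 300, read 308.5, 131.5 and 265.9.

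Of the falls just short of 2-fold, Ntn1, the guidance cue netrin 1, read 317.4, 159.5 and 92. Ahi1, a protein of the ciliary transition zone, read 857.4, 455.6 and 512 and differed by -0.89. Among the 22 bright cilium genes of the fixed list, which does not hold Ahi1, none passed 1.5-fold. The remaining genes of the 20 largest falls were the noncoding RNA gene Dancr (-0.94), Plekhg5 (-0.94), Ppt2 (-0.92), Anks1 (-0.89) and Clcn5 (-0.84).

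**Figure D3:**
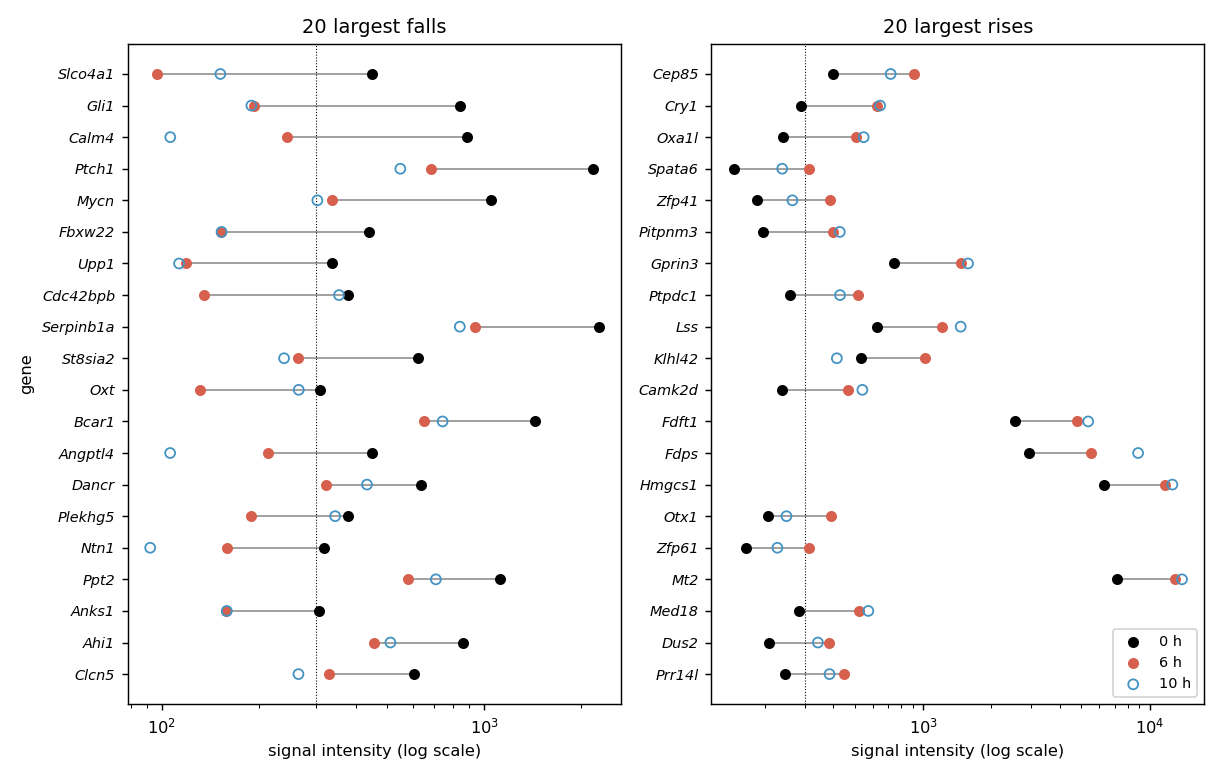
Signal intensity (log axis) at 0 h (black), 6 h (red) and 10 h (open blue) of cyclopamine for the 20 bright genes with the largest falls (left) and the 20 with the largest rises (right) at 6 h, 1 array per time, with a dotted line at 300. The falls have mostly low 6 h values, many of them under 300, while the rises include the bright genes Fdft1, Fdps, Hmgcs1 and Mt2.

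The enzymes of cholesterol synthesis were higher together, each by less than 2-fold, or with arrays centred on their median probe set by at least 2-fold for 4 of them. Of the 16 bright enzymes 10 rose 1.5-fold, against 0.834% of all bright genes, and none fell. In the mevalonate pathway 7 of 9 listed enzymes were measured and 6 were bright, all 6 were above 0, and their median difference was 0.82. Hmgcs1, which makes HMG-CoA at the entry of the pathway, read 6315.5 at 0 h, 11727 at 6 h and 12597.4 at 10 h, a difference of 0.89. Its 3 other probe sets over 300 gave 0.73, 0.84 and 0.91. The SD over all genes at levels above 4800 was 0.12.

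The next steps turn mevalonate into isoprenoids. Mvk, mevalonate kinase, read 385.1, 590.4 and 659.4, and its second probe set gave 0.58 beside 0.60. Mvd, the decarboxylase, read 302.8, 396.1 and 536.2, and did not pass 1.5-fold with 0.37. Its second probe set, 233.5 at 0 h and 480.8 at 6 h, gave 0.99. Idi1, which isomerises the first isoprenoid, read 2648.7, 4440.4 and 6116.9, with 0.99 for its second probe set. Pmvk, phosphomevalonate kinase, was dim at 230.3 and 259.

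Fdps and Fdft1 join isoprenoids up to squalene and had the largest differences of this pathway. Fdps read 2934.7, 5514.5 and 8890.9, and Fdft1 2549, 4796.8 and 5351.3, with differences of 0.91 and 0.91 at 6 h. A second probe set of Fdft1 gave 0.94, and the mean of the probe sets of Fdps, of which one was dim, gave 0.50. All 6 bright enzymes were higher again at 10 h than at 6 h.

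After squalene, 10 of 11 listed enzymes were measured and all 10 were bright, 9 of them above 0, 5 past 1.5-fold, with a median of 0.58. Lss, which closes the sterol rings, was the highest at 0.94, reading 623.2, 1210.9 and 1464.5. Sqle, which oxidises squalene, read 3807.9, 5756 and 5953.7. The demethylating enzymes followed. Cyp51 read 1647.7, 2892.9 and 3955.6 with 0.81 and 0.89 for its second probe set. Nsdhl read 1432.7, 2524.3 and 3863.1, and Msmo1 7711.7, 11730 and 13312.8. Hsd17b7, their partner, fell just short of 1.5-fold at 0.57, and its probe sets disagreed, with 0.27 and -0.05 for the others.

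The remaining enzymes did not pass 1.5-fold. Sc5d read 3111, 4162.1 and 4721.1 with 0.42, and its 2 other probe sets gave 0.36 and 0.39. Dhcr7, which makes cholesterol from its direct precursor, differed by 0.27 and was back at 1833.1 at 10 h. Ebp, the sterol isomerase, differed by 0.07. Tm7sf2, a sterol reductase that shares its reaction with the lamin B receptor, was the one enzyme below 0, at 534.7, 430.6 and 396.2.

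**Figure D4:**
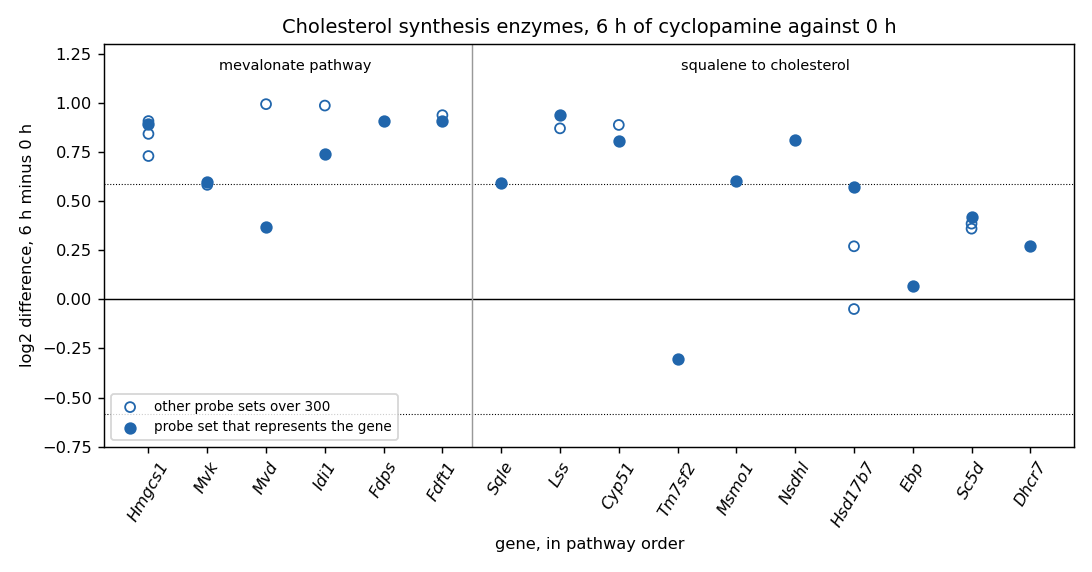
Difference between 6 h and 0 h (log2) for the 16 bright enzymes of cholesterol synthesis, in pathway order from Hmgcs1 to Dhcr7, with the representing probe set as a filled circle and other probe sets over 300 as open circles. Dotted lines mark 1.5-fold; the filled circles lie between 0.37 and 0.94 from Hmgcs1 to Cyp51, and the one enzyme below 0 is Tm7sf2.

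Genes that sense and move sterols differed less than the enzymes. Of 17 listed, 13 were measured and 10 were bright, 8 above and 2 below 0, with a median of 0.20 and none past 1.5-fold. Srebf2, the SREBP factor of cholesterol synthesis, had the highest difference and read 970.3 at 0 h, 1361.8 at 6 h and 1296.9 at 10 h, and a second probe set gave 0.44 beside 0.48. Insig1, which retains SREBP in the endoplasmic reticulum and is itself a target, read 539.3, 704.5 and 848.4. Stard4, a sterol carrier, and Mylip, which degrades the LDL receptor, differed by 0.40 and 0.40. Abca1, the cholesterol exporter, and Npc2, the lysosomal carrier, differed by -0.18 and -0.13.

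Fatty acid synthesis, which SREBP also serves, rose in part. All 11 listed genes were measured and 10 were bright, 8 of them above 0, with a median of 0.31 and 3 past 1.5-fold, against 0.834% of all bright genes. With a pseudocount of 64 or the mean of all probe sets 2 passed. Acaca, the carboxylase of the committed step, read 617.4, 1007.8 and 938.9. The elongase Elovl6 read 994.6, 1578.1 and 1970.5. Scd2, a desaturase and the brightest of the list, read 12392.4, 18608.1 and 23904.9 and was at the margin of 1.5-fold with 0.59, beside 0.60 and 0.70 for its other probe sets. Scd1, Fasn and Acly gave 0.47, 0.34 and 0.28, and the desaturase Fads2 was the lowest at -0.36.

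Promoters of the genes that moved together were searched for short motifs on both strands, in RefSeq windows (GRCm38.p6) from 250 bases before to 50 bases after the start of a gene. Of the 16 bright enzymes 13 had a promoter in the table. All 13 held the CCAAT box, CCAAT, which the factor NF-Y binds and which often stands next to SREBP sites. The same letters stood in 43.5% of the 6643 bright genes with a promoter and in 41.1% of all 27025 genes. At least 2 boxes stood in 1 promoter for 9 of the 13 enzymes, against 17.7% of bright genes. The search for this box was added after the intensities had been seen, and a match is a description of the letters only. For 6 enzymes that rose 1.5-fold, the 100 bases of the promoter with the most boxes follow, in the strand of the gene. Msmo1, which rose 1.5-fold too and held 3 boxes, is not shown. The boxes are in capitals as CCAAT or its reverse complement ATTGG. Boxes outside these windows are not shown: the windows hold 2 of 4 for Hmgcs1, 3 of 5 for Mvk and 3 of 4 for Nsdhl.
Hmgcs1, chr13:119690283-119690382, plus strand: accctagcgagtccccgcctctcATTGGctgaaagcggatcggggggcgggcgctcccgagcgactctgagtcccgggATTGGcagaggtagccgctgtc
Mvk, chr5:114444140-114444239, plus strand: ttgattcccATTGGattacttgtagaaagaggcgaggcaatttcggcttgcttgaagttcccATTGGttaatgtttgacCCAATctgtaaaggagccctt
Idi1, chr13:8885526-8885625, plus strand: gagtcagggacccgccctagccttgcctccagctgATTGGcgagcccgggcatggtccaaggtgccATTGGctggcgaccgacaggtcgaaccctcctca
Lss, chr10:76531493-76531592, plus strand: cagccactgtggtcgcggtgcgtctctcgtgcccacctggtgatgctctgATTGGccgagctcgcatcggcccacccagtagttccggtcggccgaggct
Cyp51, chr5:4104677-4104776, minus strand: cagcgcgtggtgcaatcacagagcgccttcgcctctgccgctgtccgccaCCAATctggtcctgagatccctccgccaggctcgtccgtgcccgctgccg
Nsdhl, chrX:72918471-72918570, plus strand: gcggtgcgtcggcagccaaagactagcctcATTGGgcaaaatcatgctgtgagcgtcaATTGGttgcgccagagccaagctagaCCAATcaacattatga

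The box was not a mark of every gene that rose or of the size of the rise. Of the 56 genes with a promoter that rose 1.5-fold, 33 held it (58.9%), among them the enzymes, and of 55 that fell 1.5-fold, 25 held it (45.5%). Tm7sf2, which was below 0, held 1 box and Ebp, at 0.07, held 2. Of the 7 bright Hedgehog targets with a promoter none held it. The classical sterol response element, TCACCCCAC, was rarer. It stood in 0.708% of bright genes and in 1 of the 13 enzymes, Hmgcs1, starting 137 bases before its start site. In Hmgcs1 it did not overlap a CCAAT box. The stretch around it is shown because this is the enzyme whose 4 bright probe sets all rose, with the element in capitals and the boxes left in lower case.
Hmgcs1, chr13:119690174-119690262, plus strand: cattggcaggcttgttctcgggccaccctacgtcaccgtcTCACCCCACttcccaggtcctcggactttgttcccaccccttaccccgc

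With 1 letter free (TCACNCCAC, also added after the intensities had been seen) the element stood in 4 of the 56 genes that rose 1.5-fold, namely Hmgcs1, Sesn1, Adamts1 and Rab3a, and in 1.37% of bright genes. Of the 55 genes that fell 1.5-fold, 1 held it, Fgf5, which had the exact element too, as had Rab3a. The GLI site, GACCACCCA, stood in 0.226% of bright genes and in none of the 7 Hedgehog targets with a promoter. The other bright targets, Gli1 among them, had no promoter available here and were not searched. Among 55 genes that fell 1.5-fold the GLI site stood in 1, Cltb, which encodes a clathrin light chain. Cltb read 6678.4 at 0 h, 4072.6 at 6 h and 3088.6 at 10 h, a difference of -0.71, and was chosen here after its values had been seen. The site is in capitals in its promoter, which is shown because no other fallen gene had the letters in the window.
Cltb, chr13:54611381-54611469, minus strand: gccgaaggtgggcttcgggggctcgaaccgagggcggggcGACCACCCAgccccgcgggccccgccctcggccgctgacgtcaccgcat

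Genes of the cell cycle had small differences. Of 27 bright genes of DNA replication 25 were below 0 and none passed 1.5-fold, with a median of -0.16, which became -0.05 with arrays centred on their median probe set, where the median of all bright genes was 0.11. Pcna, the clamp of the replication fork, read 21135 at 0 h, 19708 at 6 h and 21268.8 at 10 h, and the helicase subunit Mcm7 12728.3, 11595.5 and 13158.8. Of 30 bright mitosis genes 25 were below 0, with a median of -0.13, or -0.02 with that centring. Over all bright genes the median without centring was 0.00, so similar numbers lay above and below 0. The kinase Aurkb, at 544.6, 345 and 582.3, and the kinesin Cenpe, at 334.2, 215.8 and 271.9, fell 1.5-fold, against 0.959% of all bright genes. Neither did with arrays centred on their median probe set. A second bright probe set of Aurkb did not go in the same direction. None of 19 bright D and E cyclins and CDK inhibitors passed 1.5-fold.

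Genes of cell death and of p53 were mixed. Of 11 bright BCL2 family genes 3 rose 1.5-fold, against 0.834% of all bright genes. That number was 4 with arrays centred on their median probe set, 2 with a pseudocount of 64 and 1 with the probe sets of each gene averaged. Bbc3, which encodes the killer protein PUMA, read 231.1 at 0 h, 398.8 at 6 h and 240.1 at 10 h, so that the higher value was seen at 6 h alone. Bcl2l11, which encodes BIM, read 1797.6, 2763.9 and 2358, and 1 of its 2 other bright probe sets went the same way. Bcl2l1, which encodes the survival protein BCL-XL, read 403.9, 621.1 and 521.6, but its second bright probe set did not go the same way. Of 17 bright p53 targets 2 rose 1.5-fold, Bbc3 and Sesn1, a member of the sestrin family, which read 1849.5, 2864.2 and 3884.4. Cdkn1a, the classical p53 target, read 2856, 2916.5 and 2762.8, and Mdm2 2572.7, 2691.5 and 2435.2.

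Falls at 1.5-fold, which 0.959% of all bright genes had, stood in some lists of secreted signals and their feedback genes. These lists are named because they held a fall. None of 11 bright MAP kinase feedback genes, 10 EGF receptors and ligands, 9 BMP genes and 8 Wnt targets fell 1.5-fold. Wnt7b, the one of 13 bright Wnt ligands and receptors that fell, read 1864.9 at 0 h, 1081.6 at 6 h and 887 at 10 h, and its second bright probe set went the same way. Fgf5, a growth factor that ends hair growth, read 1953.5, 1139.5 and 655.8 and was the one of 4 bright FGF genes that fell. Of 11 bright Notch genes 2 fell, Lfng, a glycosyltransferase of the receptors (459, 293.6 and 338.6), and Nrarp, a feedback inhibitor (1306.3, 859.5 and 693.5). Cxcl14, the one of 4 bright chemokines and receptors that fell, read 4443.7, 2878.7 and 1467.6. Ccn2, a matricellular protein that stands in the lists of immediate early, TGF-beta and YAP targets, read 1939.7, 1286.3 and 761, and no other member of the last 2 lists passed 1.5-fold. Wnt7b and Fgf5 kept the call with arrays centred on their median probe set, and Lfng, Nrarp, Cxcl14 and Ccn2 did not.

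Zinc and clock genes held the remaining larger differences within lists. Mt2, a metallothionein, read 7190.5 at 0 h, 13001.9 at 6 h and 13896.5 at 10 h, and Slc30a1, the zinc exporter of the plasma membrane, 633.1, 1081.4 and 966.4. These were the 2 of 7 bright metallothioneins and zinc transporters that rose 1.5-fold, against 0.834% of all bright genes. Mt1 differed by 0.34, and the zinc importers Slc39a10 and Slc39a14 by -0.55 and -0.50. Cry1, a repressor of the circadian clock, was the one of 11 bright clock genes past 1.5-fold and rose 2-fold, from 288.5 to 626.7, with 645.3 at 10 h. Its list neighbours Clock and Arntl differed by 0.12 and -0.06.

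Other lists held 1 or 2 members past 1.5-fold. In the matrix protease list Timp3, an inhibitor, fell from 1716.9 to 1030.1, with all 3 other bright probe sets in the same direction, and Adamts1, a protease, rose from 869.7 to 1472.9 and read 2581.5 at 10 h. Igfbp7 of the insulin-like growth factor axis fell from 342.1 to 203.4, and Cyp1b1 of xenobiotic metabolism from 2680 to 1734.2. Trib3 of the amino acid response fell from 584.6 to 379.3 and read 147.3 at 10 h. With arrays centred on their median probe set neither Cyp1b1 nor Trib3 passed 1.5-fold, and Trib3 did not with a pseudocount of 64 or the mean of all its probe sets. Gadd45b of the immediate early genes rose from 610.3 to 954.6. List members outside the 20 largest differences that are named here for passing 1.5-fold were chosen after their values had been seen.

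**Figure D5:**
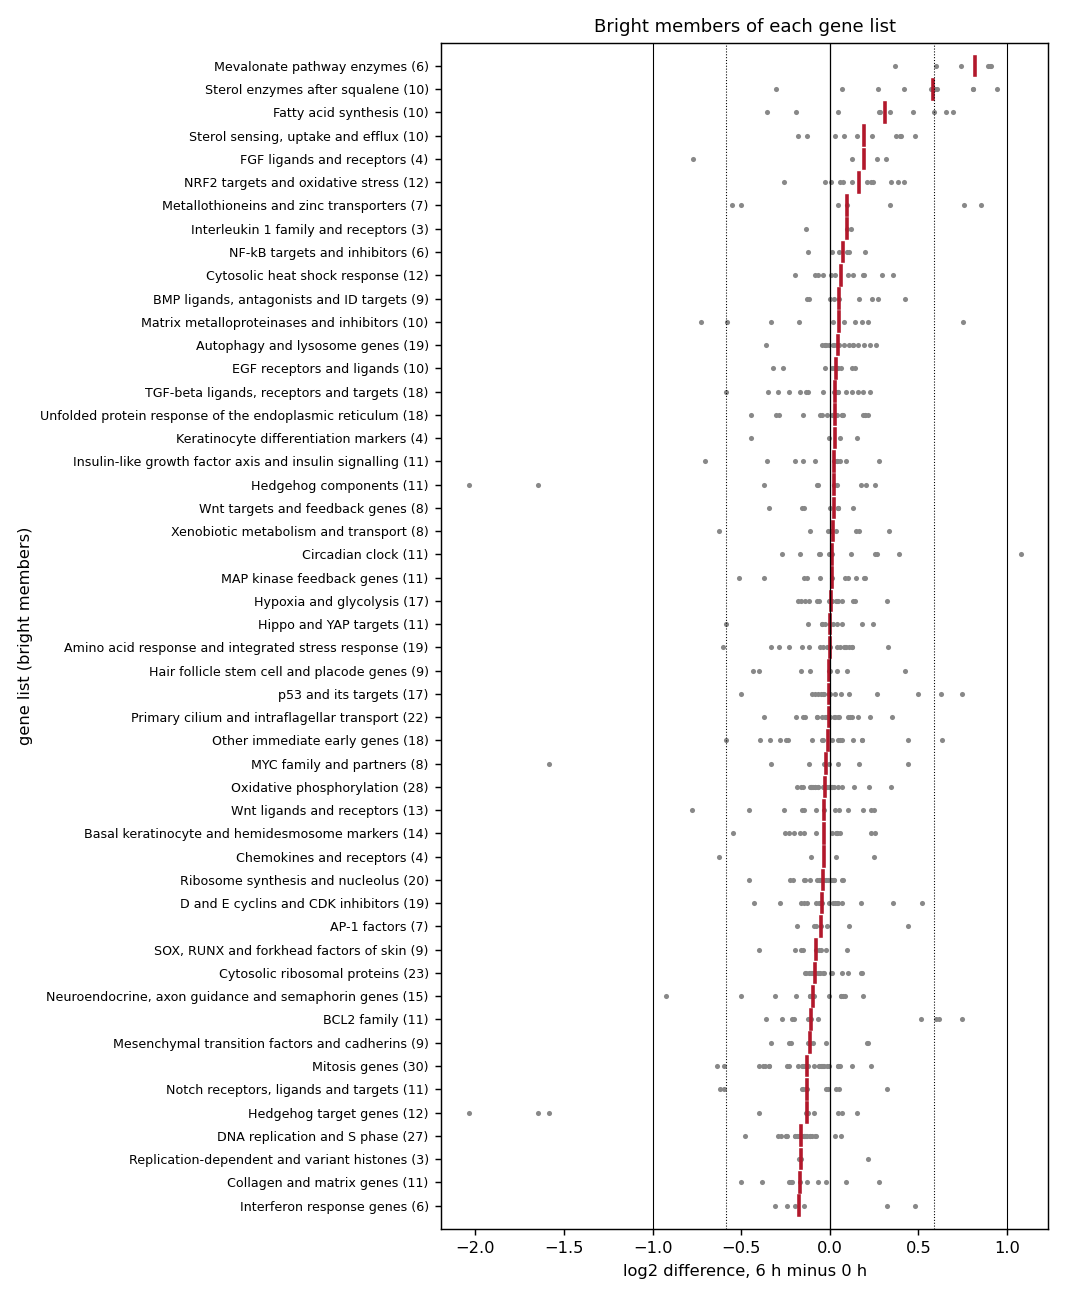
Difference between 6 h and 0 h (log2) of every bright member (points) of each of the 50 gene lists, ordered by the median (bar), with the number of bright members after the name of the list. Solid lines mark 0 and 2-fold and dotted lines 1.5-fold; the 2 lists of cholesterol synthesis have the highest medians, 0.82 and 0.58, and Gli1, Ptch1 and Mycn are the points at the far left.

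Over all bright genes 1.79% passed 1.5-fold in either direction, so having no member past it does not set a short list apart. Many programmes that answer to stress or growth signals had no member past 1.5-fold. This was so for 18 bright genes of the unfolded protein response, 12 of the cytosolic heat shock response, 12 NRF2 targets, 17 of hypoxia and glycolysis, 7 AP-1 factors, 11 MAP kinase feedback genes, 10 EGF receptors and ligands, 8 Wnt targets and 9 BMP genes. The NRF2 targets had 10 of 12 above 0 and a median of 0.17. It was so too for 14 bright basal keratinocyte genes, 4 differentiation markers, 9 hair follicle genes, 11 collagen and matrix genes, 28 of oxidative phosphorylation and 23 ribosomal protein genes. The ribosomal protein genes had a median of -0.08, which turned to 0.02 with quantile normalization. Centring on the median probe set shifts all genes alike, to 0.03 for this list and 0.11 for all bright genes, so the distance between them stayed at -0.08.

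The largest rises were mostly of dim genes. Cep85, a protein of the centrosome, rose from 400.4 to 914.5 and read 718.7 at 10 h, but its second bright probe set gave 0.08. Oxa1l, which inserts proteins into the inner mitochondrial membrane, rose from 239.6 to 507.8, but another probe set went from 272.2 to 231.5 and the mean of its probe sets gave 0.41. The zinc finger gene Zfp41 rose from 184.6 to 389.2. Spata6, a gene of the sperm flagellum, rose from 145.7 to 314.5, and the mean of its probe sets gave -0.14. With Cry1 these were the 5 genes that rose 2-fold, and Cep85 alone was over 300 on both arrays.

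Of the genes next in order, Gprin3 was brighter, at 744 at 0 h, 1464.5 at 6 h and 1577.4 at 10 h, with 0.40 for its second bright probe set. Klhl42, an adaptor of ubiquitin ligases, read 528.9, 1016.1 and 415.9, high at 6 h alone. Camk2d, a calcium-dependent kinase, rose from 238.5 to 466, with 0.24 for its second bright probe set. For Ptpdc1 the second bright probe set went down, from 314.8 to 226.1, beside 0.96 for the representing one. Pitpnm3 (0.98), the homeobox gene Otx1 (0.86), Zfp61 (0.86), the Mediator subunit gene Med18 (0.85), Dus2 (0.84) and Prr14l (0.82) complete the 20 largest rises with Lss, Fdft1, Fdps, Hmgcs1 and Mt2. The second, dim probe sets of Dus2, from 221.6 to 95.7, and of Prr14l, from 137.1 to 107.2, went down, and the mean of their probe sets gave -0.13 and 0.26.

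Second probe sets mostly had the same sign as the representing one, and fewer passed the same size. Of 32 other bright probe sets of genes that rose 1.5-fold, 23 had the same sign and 11 also passed 1.5-fold. All of those of Hmgcs1, Scd2, Mvk, Idi1, Fdft1, Cyp51, Lss, Elovl6, Acaca and Acsl3, which are cholesterol or fatty acid genes, had the same sign. Other risen genes were mixed, with 1 of 4 for Nucks1, 1 of 2 for Bcl2l11 and 2 of 2 for Sesn1. The single one had the same sign for Tbc1d23, Gadd45b, Ccng2, Camk2d, Gprin3 and Cep85, and not for Map3k12, Zfp410, Bcl2l1, Steap1 and Ptpdc1. Of 21 such probe sets of genes that fell, 17 had the same sign and 8 also passed.

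The tissue arrays, which the choice of these genes did not use, gave a second reading of the same genes. Among the 13 genes that fell 2-fold, 6 were higher on both carcinoma arrays than on both epidermis arrays and 2 were lower, and over all bright genes these shares were 37.9% and 40.9%. Gli1 read 2192.4 and 1933.2 in carcinoma against 190.2 and 292.9 in epidermis. Mycn read 6253.3 and 5627 against 908 and 998.5, and Ptch1 26619.6 and 38709.8 against 11683.1 and 12072.7. For these 3 genes the tissues did not overlap.

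Genes outside the Hedgehog lists went both ways. Slco4a1 read 14612.7 and 26055.4 in carcinoma against 1358 and 1650.4 in epidermis, and St8sia2 1651.8 and 1212.1 against 191.5 and 153.1. Serpinb1a, at 1285.1 and 1103.2 against 330.4 and 235.6, was higher in carcinoma too. Calm4 was lower in carcinoma, at 16044.2 and 6057.9 against 39780.5 and 40150.1. At 1.5-fold, 39 of the 77 fallen genes (50.6%) were higher in both carcinoma arrays and 20 were lower. For the 67 risen genes these were 31 (46.3%) and 21, so both sets had more genes higher in carcinoma than the 37.9% of all bright genes, and the difference between the sets was not tested.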

How the data were processed

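The authors deposited a table of 1 linear signal intensity per probe set and array. Its trimmed mean was 500 on each PDKC1 array, which scaling of whole arrays would give. Its software is not given in the sources used here. Per the labels' protocols, RNA was extracted with a column kit. With 1 array per time the number of arrays limits the precision. Here, intensities were taken as log2(intensity + 16) with no further normalization, and control probe sets (64), probe sets of several genes (932) and those without a gene name (9160) were left out. Symbols were checked through Entrez identifiers, of which 34741 matched the RefSeq table. Of 915 symbols in 50 gene lists 847 were measured and 591 were bright. Counts used a limit of 300 and folds of 2 and 1.5, in Python 3.11.15 with pandas 2.3.3 and numpy 2.4.6, and the counting was tested on simulated data. No test was run. Members and lists were chosen with earlier results of these data known. Named by rule were the 20 largest rises and falls among bright genes, every measured Hedgehog gene and, of each other list, up to 4 bright members past 2-fold or else its 2 brightest; other names were chosen after their values were seen. Tissue arrays were compared by whether both arrays of one tissue lay above both of the other.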

Additional observations from a re-analysis of the deposited data

How the results depend on the processing

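Each alternative changed 1 choice. Of 5 genes that rose 2-fold at 6 h, the count became 14 with arrays centred on their median probe set, 1 with a pseudocount of 64, 848 with no limit on intensity, 3 with a mean of both arrays over 300, 0 with a limit of 1000, 8 with the probe set brightest over all 7 arrays, 67 at 1.5-fold and 0 at 3-fold. Of 13 that fell, it became 1184 with no limit, 8 with a mean over 300, 4 with a limit of 1000, 77 at 1.5-fold and 5 at 3-fold. Quantile normalization gave 5 and 13. Of the genes past 2-fold, Spata6 turned its direction, at -0.14 with the mean of all its probe sets. So did, below that size, Dus2 (-0.13), Hsd17b7 (-0.02), Sufu (-0.04), Gpr161 (0.44) and Cdk6 (-0.05) with that mean, Ptpdc1 (-0.45) with the probe set brightest over all 7 arrays, and Hhat (0.04), Rab34 (0.02) and Gpr161 (also above 0) with arrays centred on their median probe set. Besides that of Spata6, 19 values of named genes moved by more than the SD between probe sets. Under the alternatives run, the median of Hedgehog targets lay between -0.15 and -0.02. That of mevalonate enzymes lay between 0.74 and 0.93, and that of later sterol enzymes between 0.49 and 0.70. All stayed within that SD, 0.26, of the main value. This limit is for single probe sets and is wide for the Hedgehog targets, whose main median was only -0.13. No paired analysis was possible because each time has 1 array, and for the same reason no array could be left out. Array signal under 300 limits what can be read of dim genes such as Hhip, Sfrp1 and Lgr5.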

Other observations

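Further genes past 1.5-fold lay outside the gene lists and are given as values, chosen after they were seen. Among the falls, Lgr4, a receptor of R-spondins, read 3276.1 at 0 h, 1930.2 at 6 h and 2537.8 at 10 h. Edn2, the peptide endothelin 2, read 1143.1, 637.6 and 536.9, and Bdnf, a neurotrophin, 385.9, 215 and 133.7. Cldn1, a tight junction protein of the epidermis, read 772, 436 and 321.4, with its second bright probe set in the same direction. E2f5, a repressive E2F factor, read 778.9, 478.4 and 303.5. Among the rises, Acsl3, which activates long-chain fatty acids, read 1084.9, 1808.8 and 2437.5. Ccng2, an unconventional cyclin of resting cells, read 1081.1, 1685.3 and 2487.5, and both genes had a second bright probe set in the same direction. Ptger4, a receptor of prostaglandin E2, read 766.5, 1249.9 and 1331.9. Except for Lgr4, these genes were further from 0 h at 10 h than at 6 h.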
